A study of Mus musculus with 10 samples.

Results

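Among mouse blood cells that were negative for both Ly6C and CD43 (DN blood cells), those with at least 1 UMI (unique molecular identifier, a counted molecule) of Epcam were set against those with none. In the second of 2 single-cell datasets, 273 of 4971 DN blood cells had an Epcam UMI, out of 7470 cells used there and 14687 in both datasets. Members were chosen by their own Epcam count, so the level of Epcam in them is a description and no finding. The same rule gave 26 of 1678 DN blood cells in dataset 1, where 7217 cells were used. The dataset 1 numbers depend on how hashtags are called: a ratio-based call gave 20 cells with Epcam and 1163 without (a share of 1.69%), while in dataset 2 its share was 5.72%.

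The study sorted LysoDCs, which are lysozyme-expressing phagocytes of Peyer's patches, and blood cells with high CD115, and asked about blood precursors of LysoDCs. DN blood cells were gated as CD115hi, Ly6C- and CD43-, with CD11b and SIRPa on their surface. Ly6C+ monocytes and CD43+ monocytes of the same blood were the other blood groups. All mice were female C57BL/6Rj, blood donors had received clodronate liposomes, which deplete phagocytes, 9 days before, and donors of Peyer's patches were untreated. Each dataset was 1 pool of mice per tissue, with 30 Peyer's patch donors and 20 blood donors in dataset 1 and 20 and 18 in dataset 2. Populations were told apart by hashtags, antibodies that carry a DNA barcode. Dataset 1 was 1 library in which cells were tagged after the sort, and also held immature and maturing type 2 conventional dendritic cells (cDC2s) of Peyer's patches. Dataset 2 had 4 labelled libraries in 1 matrix, cells were tagged before the sort, and 1 hashtag served both DN gates, CCR2+ and CCR2-, so the gate of a member is not known. The clodronate treatment was common to all blood groups of both datasets.

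EpCAM is a membrane protein of epithelial cells that mediates weak adhesion between like cells and regulates cadherin and claudin junctions. It is not limited to epithelium: Langerhans cells of the skin carry it and depend on TGF-beta to form, and EpCAM helps them to move out of the epidermis. Id2 is an inhibitor of E-protein transcription factors that several dendritic cell lineages need, Langerhans cells among them.

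Epcam (ENSMUSG00000045394) lies on GRCm38 chromosome 17, from 87635979 to 87651129 on the plus strand. Its promoter is shown because Epcam defines these cells, and that of Id2 because Id2 had the lowest adjusted p among the genes tested. Both windows run from 250 bases before to 50 bases after the start and are from RefSeq (GRCm38.p6), 5′ to 3′, at chr17:87635729-87636028 on the plus strand and chr12:25096043-25096342 on the minus strand. Capitals mark the E-box CAGGTG or its reverse complement CACCTG, a motif bound by basic helix-loop-helix E proteins, whose DNA binding Id2 inhibits, and by repressors of the ZEB and SNAIL families.
Epcam: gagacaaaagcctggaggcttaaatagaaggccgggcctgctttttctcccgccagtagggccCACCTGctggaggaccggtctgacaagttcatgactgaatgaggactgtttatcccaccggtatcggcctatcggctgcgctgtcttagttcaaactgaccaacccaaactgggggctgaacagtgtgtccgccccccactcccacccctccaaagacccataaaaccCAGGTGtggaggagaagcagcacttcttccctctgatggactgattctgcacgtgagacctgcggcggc
Id2: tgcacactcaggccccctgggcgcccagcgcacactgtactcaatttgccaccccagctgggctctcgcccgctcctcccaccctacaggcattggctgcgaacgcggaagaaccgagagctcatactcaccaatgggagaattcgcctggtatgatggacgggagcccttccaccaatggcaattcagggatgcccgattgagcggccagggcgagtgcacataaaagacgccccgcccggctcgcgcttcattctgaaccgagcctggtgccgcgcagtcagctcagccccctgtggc
The Epcam window held CACCTG from -187 to -182 and CAGGTG from -19 to -14, counted from the start. Among 32851 promoter windows of the same length, 20.2% held at least 1 such E-box on either strand and 2.88% held at least 2. No match was found in the Id2 window. These matches describe letters and not binding.

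Epcam UMIs were few in each member. In dataset 2, 177 members had 1 UMI, 59 had 2, 21 had 3, 11 had 4, 4 had 5 and 1 had 6, so the members just inside the rule had 1 UMI and the cells just outside it had 0. In dataset 1, 22 members had 1 UMI and 4 had 2. The summed level in members was 408 CPM (counts per 1000000 gene UMIs; 95% Poisson interval 370 to 448) in dataset 2 and 223 CPM (150 to 318) in dataset 1. Intervals on levels and shares cover counting error only.

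Of DN blood cells in dataset 2, 5.49% had Epcam (exact Clopper-Pearson 95% interval 4.87 to 6.16). In the same dataset, 1 of 866 Ly6C+ monocytes (0.115%) and 0 of 952 CD43+ monocytes had it. A count of 0 was read as allowing 3 cells, here a share of up to 0.315%, and the exact interval reaches 0.387%. Median depths were 5920 UMIs in Ly6C+ and 2312 in CD43+ monocytes. With every cell thinned to 2000 UMIs, the share was 3.78% (3.26 to 4.36; 183 of 4839) in DN blood cells and 0 of 861 Ly6C+ and 0 of 650 CD43+ monocytes, which allow up to 0.348% and 0.462% (exact intervals up to 0.428% and 0.566%). Shallower cells were left out of the thinned shares. By the labels, DN blood cells and the monocyte types of dataset 2 came from different libraries, so population and library cannot be told apart there.

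In dataset 1, where all populations shared 1 library, the share in DN blood cells was much closer to that in monocytes. It was 1.55% (1.01 to 2.26), against 9 of 931 Ly6C+ monocytes (0.967%, 0.443 to 1.83) and 4 of 663 CD43+ monocytes (0.603%, 0.165 to 1.54), and these intervals overlap. Thinned, the shares were 1.09% (0.647 to 1.72), 0.222% (0.0269 to 0.8) and 0.348% (0.0422 to 1.25). That library also held cDC2s, of which 687 of 970 immature cells (70.8%) and 141 of 261 maturing cells (54.0%) had Epcam. The DN share of dataset 1 as a whole thus did not stand clear of the monocyte shares, but it was uneven among DN blood cells, with 12 of 91 cells in 1 cluster described with the clusters of dataset 1. The part of free RNA or stray cells in these shares was not tested. Dataset 2 held no sample labelled as cDC2s.

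**Figure D1:**
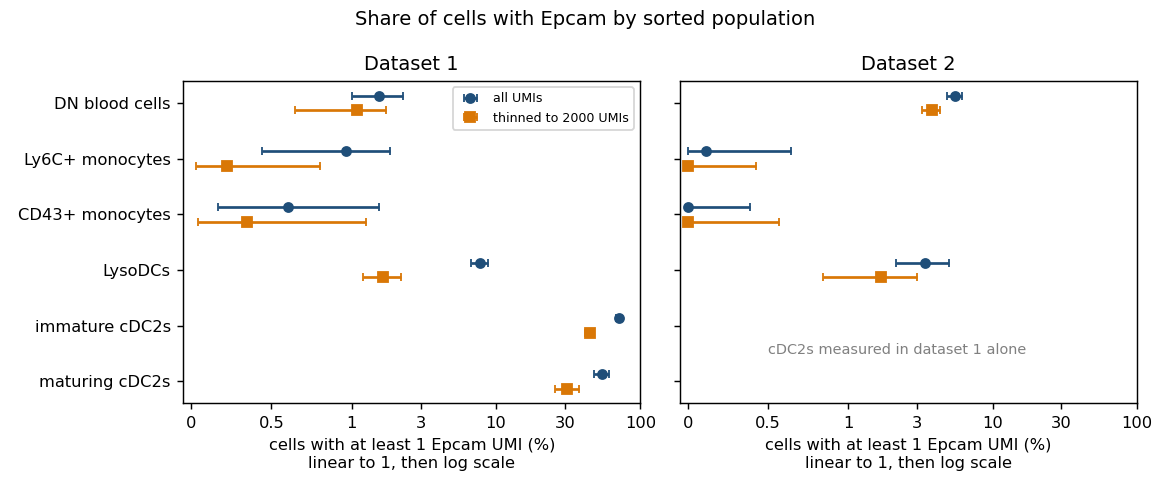
Share of cells with at least 1 Epcam UMI (percent, axis linear to 1 and logarithmic above) in each sorted population of both datasets, with exact 95% intervals, as counted and after thinning to 2000 UMIs. DN blood cells of dataset 2 stand at 5.49% with both monocyte types at or below 0.115%, whereas in dataset 1 the DN share of 1.55% overlaps those of the monocytes.

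Summed over whole populations, Epcam was at 14.9 CPM in DN blood cells, 8.6 CPM in LysoDCs, 0.192 CPM in Ly6C+ monocytes and 0 in CD43+ monocytes of dataset 2. In dataset 1 the order was immature cDC2s (386 CPM), maturing cDC2s (224 CPM), LysoDCs (12.5 CPM), DN blood cells (3.91 CPM), CD43+ monocytes (2.49 CPM) and Ly6C+ monocytes (2.18 CPM). DN blood cells therefore ranked above LysoDCs in dataset 2 and below them in dataset 1. In cells, 23 of 681 LysoDCs of dataset 2 (3.38%, median depth 8999 UMIs) had Epcam, and thinned the share was 1.68% (0.84 to 2.98). In dataset 1, 209 of 2714 LysoDCs had it (7.7%, median depth 13103.5 UMIs), against 1.55% of DN blood cells. Thinned, these shares were 1.65% (1.2 to 2.21) and 1.09% (0.647 to 1.72).

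Members of dataset 2 were shallower than the other DN blood cells, with a median of 3523 UMIs (range 1580 to 11416) and 1460 genes, against 5841.5 UMIs (1024 to 20144) and 1884 genes. Their mitochondrial share was 2.71% against 2.36%. In dataset 1 members were not shallower, at 4749.5 against 4477.5 UMIs. Total counts behind the members were 1050131 UMIs in dataset 2 and 134605 in dataset 1, against 27728629 and 7539039 for DN blood cells without Epcam. Levels from dataset 1 members thus rest on few molecules, and levels from dataset 2 carry most of the precision. Only 37 barcode sequences occurred in both matrices, 0.312% of the smaller.

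The label was checked against markers of epithelium and other cell types. Of 16 gut epithelial genes, among them the brush-border gene Vil1 and the keratin genes Krt18, Krt19 and Krt20, 15 were at 0 in members of dataset 2, with a summed level of 0.952 CPM against 1.046 CPM in the other DN blood cells. None of the 16 was abundant enough to be tested. Of the T and NK cell list 12 of 13 genes were at 0, of the neutrophil list 8 of 10, of the platelet list 6 of 8 and of the basophil and mast cell list 7 of 8. B cell genes were at 0 for 8 of 12, with a summed level of 14.29 CPM in members and 42.09 CPM in the others. Genes of the sort were present, and none of them passed the test of the next comparison: Csf1r (CD115) was at 136 CPM in members and 190 CPM in the others of dataset 2, Sirpa at 127 and 140 CPM, and Itgam (CD11b) at 132 and 159 CPM. Ly6c2 was at 0 and 11.4 CPM, and Spn (CD43) at 37.1 and 62.1 CPM, against 1060 CPM of Ly6c2 in Ly6C+ and 688 CPM of Spn in CD43+ monocytes. Both sort markers were thus far below the monocyte levels in members, and gut epithelial markers were at or near 0.

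Members were compared with the other DN blood cells across all genes to ask what else goes with Epcam among DN blood cells. By the labels, the CCR2+ and CCR2- DN gates of dataset 2 were separate libraries, and the gate of a member is not known. Members and others may thus differ in gate or library within that dataset, and the part of either was not tested. Raw counts were summed per population and dataset, and the 2 datasets were the replicates (n = 2 pools of mice). The test was edgeR's quasi-likelihood test with dataset as a block and Benjamini-Hochberg adjustment over 10225 genes, Epcam left out, with a threshold of 0.05. It called 55 genes, 0.538% of those tested, of which 34 were higher in members (0.333%) and 21 lower (0.205%). All 55 had the same sign in both datasets. The median change over all genes was -0.0648 on the log2 scale. Changes are on the log2 scale with an approximate standard error (SE).

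These calls changed with the depth of the cells compared and with the dataset left out. When the other DN blood cells were matched to the members in depth (medians 3523.5 and 4740.0 UMIs in datasets 2 and 1), 7 of the 27 named genes passed: Adgre1, Cd24a, Clec4a1, Clec4a3, Ifitm3, Pmepa1 and Wdfy4. Id2 in the matched cells was at 242 CPM in dataset 2 and 37.7 CPM in dataset 1, and its difference of 1.88 did not pass (adjusted p = 0.625). In dataset 2, matched levels also came closer to the members for Ctnnd2 (35.2 CPM), F11r (35.4 CPM), Ltb (79.4 CPM) and Cd24a (23.6 CPM). All other DN blood cells there had 17.8, 17.6, 44.0 and 13.2 CPM. In dataset 1, Ctnnd2 and F11r came closer (12.8 CPM each, from 8.22 and 9.15 CPM). Ltb (28.6 from 35.3 CPM), Cd24a (7.9 from 7.96 CPM) and Id2 (37.7 from 45.0 CPM) did not. Thinning every cell to 2000 UMIs instead left 17 of the 27, Id2 among them. Depth also differed among the clusters of dataset 2 described below. Median depth was 3409 UMIs in cluster 4, which held most members, and 8029.5 in cluster 3, which held 0. Cluster 7, with 1 member, was at 3354.5. Matching in depth can thus also change the mix of clusters among the other cells, and the part of each was not tested. Without the members of dataset 1, 7 of the 27 passed (Cd24a, Clec4a3, Id2, Ltb, Pak1, Wdfy4 and Zfas1), and without those of dataset 2, 0 did, when Id2 had an adjusted p of 0.0675.

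Id2 had the lowest adjusted p. It stood at 654 CPM in members (606 to 705) and 130 CPM in the other DN blood cells (125 to 134) of dataset 2. In dataset 1 it stood at 327 CPM (238 to 439) and 45.0 CPM (40.3 to 50.0). The difference was 2.41 ± 0.19 (adjusted p = 4.44e-07). Both members' sums lay above every blood sum without Epcam, since Ly6C+ monocytes had 59.0 and 101 CPM and CD43+ monocytes 47.7 and 107 CPM in datasets 1 and 2. In LysoDCs it was at 16.6 and 34.7 CPM, and in immature cDC2s at 602 CPM. With cells thinned to 2000 UMIs, 53.7% of members and 19.4% of the other DN blood cells of dataset 2 had an Id2 UMI.

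Of the Langerhans-type and TGF-beta response list, 2 of 15 tested genes were higher, Id2 and Pmepa1, and 0 lower, with a median change of 0.499. Over all genes 0.333% were higher and the median was -0.0648. Pmepa1, a target and feedback inhibitor of TGF-beta signalling, was at 27.6 CPM in members (18.5 to 39.7) and 2.7 CPM in the others of dataset 2, and at 52.0 (20.9 to 107) and 3.32 CPM in dataset 1 (difference 3.43 ± 0.49, adjusted p = 0.00137). The members' counts behind it were 29 and 7 UMIs, so its level is loosely fixed. Cd207, which encodes langerin, the lectin that marks Langerhans cells, was at 0 in members of dataset 2, as were Hapln3 and Itgb8. Cd207 was also at 0 in the other DN blood cells and in the sorted cDC2s, so its 0 does not set members apart. In LysoDCs Pmepa1 was at 42.5 CPM in dataset 1 and 45.7 CPM in dataset 2, the latter above the members' interval.

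Among 10 tested adhesion and junction genes, 1 was higher and 0 were lower, with a median change of 0.269, where 0.333% of all genes were higher. F11r, which encodes the junctional adhesion molecule JAM-A, was at 64.8 CPM in members and 17.6 CPM in the others of dataset 2, and at 22.3 and 9.15 CPM in dataset 1 (1.75 ± 0.31, adjusted p = 0.0102). The dataset 1 level of F11r rests on 3 UMIs (4.6 to 65.1 CPM), an interval that holds the level of the other cells. By level alone, 6 of the 10 were higher in dataset 1 and 9 in dataset 2, where 4708 and 6105 of all 10225 genes were. Cdh1 was at 6.67 against 0.397 CPM in dataset 2, on 7 UMIs in members, and did not pass. Cldn7, for a claudin that binds EpCAM, was at 0 in members of dataset 2. It was also at 0 in the other DN blood cells, so this 0 does not set members apart. Outside the lists, Ctnnd2, a delta-catenin of the cadherin complex, was at 73.3 against 17.8 CPM and 89.1 against 8.22 CPM (2.27 ± 0.34, adjusted p = 0.00191). In the 4 monocyte sums Ctnnd2 lay between 0 and 0.77 CPM.

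**Figure D2:**
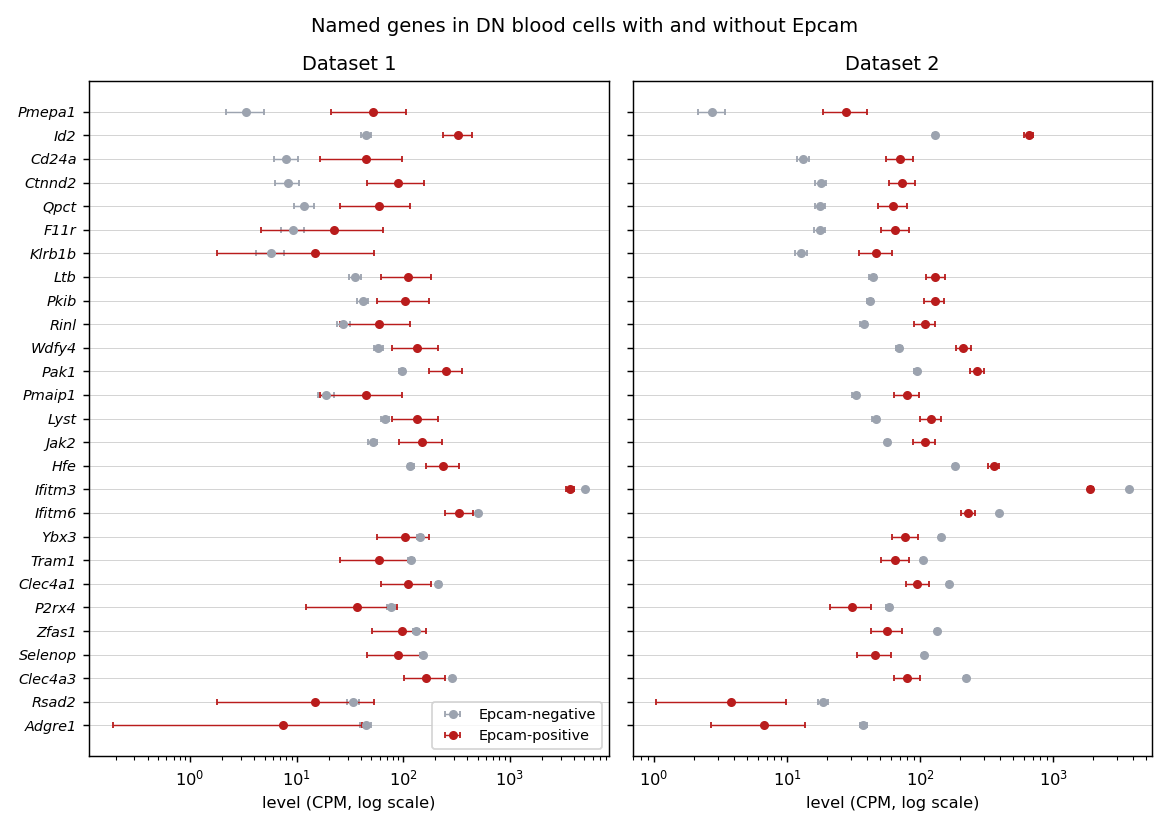
Levels of the named genes (CPM, logarithmic axis, points with 95% Poisson intervals) in DN blood cells with and without Epcam, as summed counts of each dataset. Id2 is at 654 and 130 CPM in dataset 2 and at 327 and 45.0 CPM in dataset 1. Every named gene lies on the same side in both datasets, which the rule required of the genes named by size.

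Dendritic cell genes were examined next. Of 14 tested genes typical of blood DN cells and cDC2s, 2 were higher and 0 lower, with a median change of -0.0574, where 0.333% of all genes were higher. Cd24a, a surface glycoprotein gene of dendritic cells and immature blood cells, was at 70.5 against 13.2 CPM and 44.6 against 7.96 CPM in datasets 2 and 1 (2.34 ± 0.29, adjusted p = 0.000309). Ltb, for the lymphotoxin beta chain, was at 130 against 44.0 CPM and 111 against 35.3 CPM (1.51 ± 0.21, adjusted p = 0.000764). Ltb was higher still in CD43+ monocytes, at 314 and 273 CPM in datasets 1 and 2. Of 17 conventional dendritic cell core genes, Id2 was the 1 higher gene and 0 were lower, with a median change of 0.27. The cytokine receptor gene Flt3 was at 88.6 against 78.6 CPM and the transcription factor gene Zbtb46 at 67.6 against 34.7 CPM in dataset 2, and neither passed. Itgax, which encodes CD11c, was at 255 against 102 CPM there (adjusted p = 0.757). Shares of cells with a UMI in dataset 1 were 38.5% (20.2 to 59.4) against 17.6% for Flt3, and thinned 19.2% against 8.54%. For Itgax they were 30.8% (14.3 to 51.8) against 21.5%, and thinned 11.5% against 10.9%, so dataset 1 did not set Itgax apart. In dataset 2 the Flt3 shares went the other way, at 26.7% against 33.4%, and thinned were 14.1% and 13.4%. For Zbtb46 the dataset 1 shares were 7.69% of members and 7.87% of the others, so it was not raised there.

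Antigen presentation genes gave 0 calls among 13 tested, with a median change of 0.1. Over all genes 0.538% were called, so 0 calls in so short a list says little about it. The invariant chain gene Cd74 was at 24800 CPM in members and 26600 CPM in the others of dataset 2. H2-DMb2, a chain of the peptide loading factor H2-DM and a near copy of H2-DMb1, was at 221 against 56.4 CPM and 163 against 36.7 CPM in datasets 2 and 1. It did not pass (adjusted p = 0.527), but did with cells thinned to 2000 UMIs (adjusted p = 0.00486). Wdfy4, whose product is needed for cross-presentation in type 1 conventional dendritic cells, was higher, at 210 against 69.1 CPM and 134 against 58.2 CPM (1.39 ± 0.21, adjusted p = 0.0018).

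The other genes named by size were of mixed function. Qpct, for glutaminyl cyclase, was at 61.9 CPM in members and 17.6 CPM in the others of dataset 2, and at 59.4 and 11.8 CPM in dataset 1 (log2 difference 1.79). Pak1, for a kinase of the cytoskeleton, was at 266 against 93.9 CPM and 253 against 97.4 CPM (1.36). Higher too were Pkib, an inhibitor of protein kinase A (1.46), Rinl (1.39), the lysosomal trafficking regulator Lyst (1.09), the cytokine receptor kinase gene Jak2 (1.0) and the iron regulator Hfe (0.88). Their adjusted p-values from edgeR lay between 0.0018 for Pak1 and 0.0383 for Pkib. From the lists of killer-cell type receptors and of the Bcl2 family, 1 gene each was higher: Klrb1b, a lectin-like receptor gene with close paralogs (1.66 ± 0.36, adjusted p = 0.0416), and the pro-apoptotic Pmaip1 (1.19 ± 0.27, adjusted p = 0.0416). Those lists had 16 and 13 genes tested and 0 lower, where 0.333% of all genes were higher.

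Genes lower in members included some of monocytes and macrophages. Clec4a3, a lectin receptor gene of CD43-high monocytes, was at 80.0 CPM in members and 219 CPM in the others of dataset 2, and at 163 and 284 CPM in dataset 1 (-1.42 ± 0.24, adjusted p = 0.0105). It was 1 lower gene among 20 CD43-high monocyte genes tested, with 0 higher and a median change of -1.04. Over all genes 0.205% were lower and the median was -0.0648. The filter on low counts also took in the monocyte sums. Clec4a3 has a close paralog. Its neighbour and paralog Clec4a1 was also lower (-1.06), so reads that the counting may split between them leave both levels uncertain. Adgre1, which encodes the macrophage marker F4/80, was at 6.67 against 37.4 CPM and 7.43 against 44.3 CPM (-2.86 ± 0.52, adjusted p = 0.0383), and was the 1 lower gene of 17 macrophage and LysoDC genes (median -0.706). The members' levels of Adgre1 rest on 7 UMIs (2.68 to 13.7 CPM) and 1 UMI (0.188 to 41.4 CPM).

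Ifitm3, an interferon-induced membrane protein gene, was at 1890 CPM in members and 3670 CPM in the others of dataset 2, and at 3710 and 5060 CPM in dataset 1 (-0.83 ± 0.16, adjusted p = 0.0194). Its paralog Ifitm6 was lower as well (-0.86), with the same limit on split reads. Of 25 interferon-stimulated genes tested, 1 was lower, the antiviral Rsad2 at 3.81 against 18.5 CPM and 14.9 against 33.7 CPM (-2.15 ± 0.47, adjusted p = 0.0397), and the median was -0.647. Over all genes 0.205% were lower and the median was -0.0648. The members' levels of Rsad2 rest on 4 and 2 UMIs (1.04 to 9.75 and 1.8 to 53.7 CPM). Also lower were the selenium transport gene Selenop (-1.33), the noncoding RNA Zfas1 (-1.22), the ATP-gated channel gene P2rx4 (-1.14), Tram1 of the translocon (-0.94) and Ybx3 (-0.92).

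**Figure D3:**
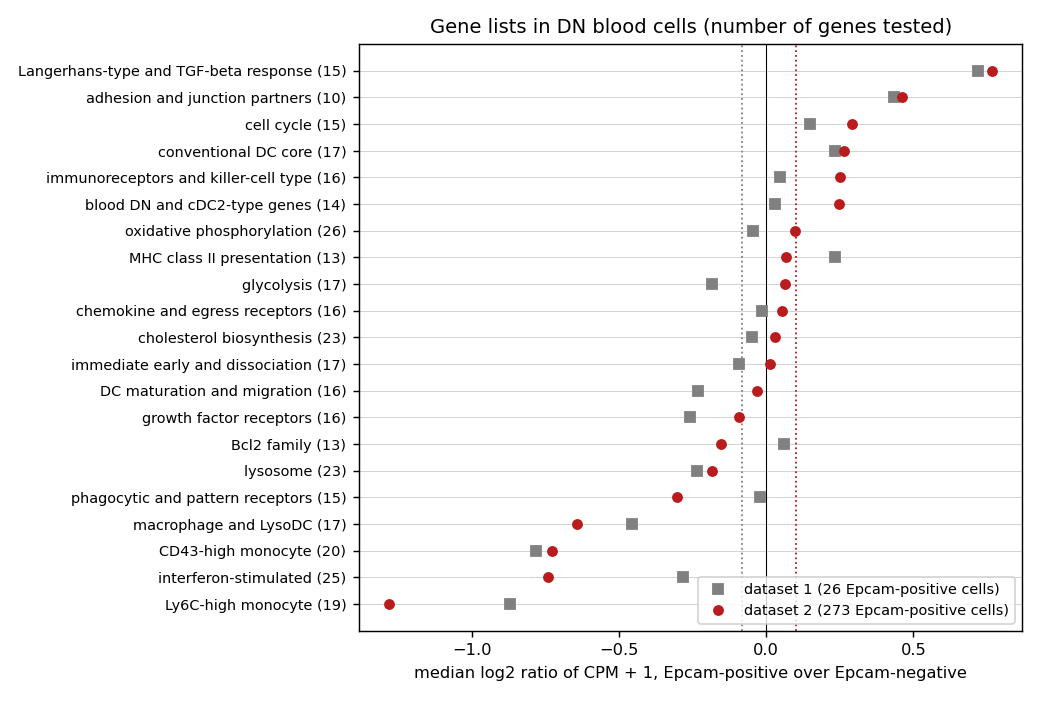
Median over each gene list of the log2 ratio of CPM + 1, members over other DN blood cells, in dataset 1 (squares) and dataset 2 (circles), with the number of genes tested. Dotted lines are the medians of all genes, -0.082 in dataset 1 and 0.1 in dataset 2. The Langerhans-type and TGF-beta list is at 0.72 and 0.768 and the Ly6C-high monocyte list at -0.87 and -1.28. The filter on low counts that set the genes tested also took in the monocyte sums.

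Several genes differed strongly in dataset 2 and mostly less in dataset 1, and did not pass. They are given as values, and were chosen after their levels were seen. Ccr2, the receptor by which monocytes leave the marrow, was at 132 CPM in members and 704 CPM in the others of dataset 2, and at 490 and 897 CPM in dataset 1 (adjusted p = 0.447). The DN gates of dataset 2 were split by CCR2, and the part of the gate in this difference was not tested. The lysozyme gene Lyz2 was at 863 against 4410 CPM and at 10300 against 14400 CPM (adjusted p = 0.877). Mrc1, the mannose receptor gene, was at 0.952 CPM (1 UMI, 0.0241 to 5.31) against 81.4 CPM and at 89.1 against 120 CPM (adjusted p = 0.693). F13a1, for a clotting factor chain of Ly6C-high monocytes, had 0 UMIs in members of dataset 2 against 85.5 CPM, yet 215 against 280 CPM in dataset 1. Over the Ly6C-high monocyte list 13 of 20 genes were at 0 in members of dataset 2, Ly6c2, S100a8, Vcan and F13a1 among them. Of its 19 tested genes 0 passed, where 0.538% of all genes did, and the median was -2.06. The filter on low counts also took in the monocyte sums, so genes near 0 in both DN groups were tested. Chil3 was at 0 against 1.33 CPM in dataset 2, and the change of Clec4e was -8.6 ± 7.7. The median of this list is thus loosely fixed. In sum that list had 5138 CPM in members and 6314 CPM in the others of dataset 2, and 4770 and 6340 CPM in dataset 1. Over the macrophage and LysoDC list it was 1965 against 6094 CPM and 15280 against 20750 CPM. Kit, the stem cell factor receptor gene, was at 60.9 against 6.92 CPM and at 29.7 against 2.39 CPM (adjusted p = 0.247, and 0.0127 with cells thinned). In the depth-matched cells without Epcam of dataset 2, Kit was at 16.3 CPM, Ccr2 at 400 CPM and Lyz2 at 2990 CPM, each closer to the members than in all other DN blood cells.

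Shares of cells with a UMI were also compared for genes that occur in many DN blood cells. In dataset 2, the lectin gene Cd209a had a UMI in 70.7% of members and 78.7% of the others, and its level was 520 against 756 CPM. In dataset 1 its shares went the other way, at 80.8% (60.6 to 93.4) against 60.0% (57.6 to 62.4). Thinned, they were 46.2% and 45.9% there. Klrd1, for the CD94 receptor chain, had a UMI in 77.3% against 66.5% of cells of dataset 2, and thinned in 58.5% (52.4 to 64.5) against 43.0% (41.6 to 44.5). In dataset 1 Klrd1 had one in 42.3% against 26.3% of cells. Cells with Cd7 or Lmo1 made up 35.9% of members and 46.6% of the others of dataset 2, and thinned 21.9% and 23.0%. In dataset 1 they made up 50.0% and 37.2%, the other way, but thinned 7.69% and 22.4%. Mrc1 was found in 1 of 273 members (0.366%), against 23.8%, while in dataset 1 it was in 5 of 26 (19.2%), against 27.0%. Cell cycle genes gave 0 calls among 15 tested, where 0.538% of all genes were called. Their summed level was 944.6 CPM in members and 942.5 CPM in the others of dataset 2.

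Levels were also set out by the number of Epcam UMIs in dataset 2, as a description. Id2 was at 130 CPM in cells with 0 Epcam UMIs, 635 CPM with 1, 664 CPM with 2 and 730 CPM with 3 or more. Ccr2 was at 704, 155, 115 and 51.1 CPM in the same order, and Lyz2 at 4410, 926, 886 and 511 CPM. The main step for these genes lay between 0 and 1 UMI. Kit was at 6.92, 58.2, 53.6 and 87.6 CPM, and Itgax at 102, 252, 260 and 263 CPM. Median depths of the cells with 1, 2 and 3 or more UMIs were 3494, 3556 and 3523 UMIs, so depth was alike among members.

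**Figure D4:**
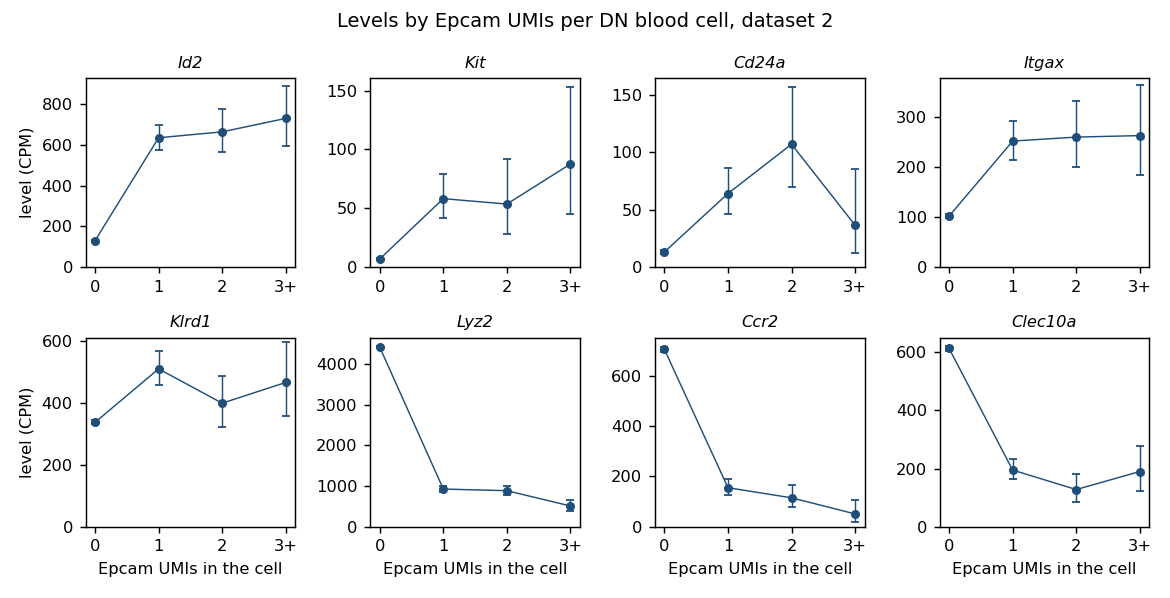
Level of selected genes (CPM, linear axes from 0, with 95% Poisson intervals) in DN blood cells of dataset 2 by number of Epcam UMIs (0, 1, 2, and 3 or more). Id2 goes from 130 to 635 CPM between 0 and 1 UMI and Ccr2 from 704 to 155 CPM, and steps after that are smaller.

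Clustering of DN blood cells with Epcam left out placed most members together. At the resolution used, dataset 2 had 9 clusters, and cluster 4, led by Hepacam2, Kit, Cd24a, Actn1, Spint1, Il1r2, Scimp and Id2, held 198 of the 273 members (72.5%). Of its 791 cells 25% (22.0 to 28.2) had Epcam, and 17.6% after thinning. Cluster 1, led by Ly6a, Stmn1, Mmp12, Cadm1, Cd72 and Cd34, held 57 members, 7.01% of its 813 cells. In the other 7 clusters the share was at most 1.39%, with 0 of 458 cells in cluster 3 (F13a1 high) and 0 of 576 in cluster 6 (Crip2 and Cd7 high). Clusters 4 and 1 had median depths of 3409 and 3549 UMIs, and cluster 7 with 3354.5 UMIs had 1 member among 288 cells. At resolution 0.4, 98.5% of members were in 1 cluster, and at 1.5 the cluster with most held 63.4%.

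**Figure D5:**
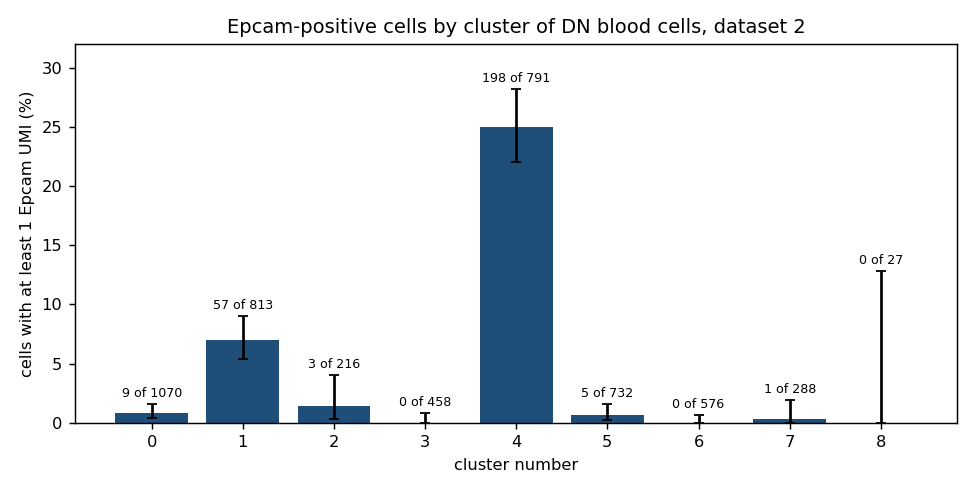
Share of cells with at least 1 Epcam UMI (percent, bars with exact 95% intervals) in each of the 9 clusters of DN blood cells of dataset 2. Cluster 4 stands at 198 of 791 cells and cluster 1 at 57 of 813, and the other clusters have at most 9 members each.

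Within cluster 4 of dataset 2, cells without Epcam shared much of the members' profile. Id2 was at 682 CPM in its members (624 to 745) and 372 CPM (347 to 400) in its cells without Epcam, and at 110 CPM in cells without Epcam elsewhere. F11r was at 66.6 and 61.4 CPM, Ltb at 137 and 121 CPM, and Lyz2 at 722 and 810 CPM. Differences in F11r and Ltb were within their counting intervals there. Kit was at 69.3 CPM (51.6 to 91.1) against 34.8 CPM (27.3 to 43.7), and Ccr2 at 91.1 CPM (70.6 to 116) against 178 CPM (160 to 197). The 75 members outside cluster 4 had 589 CPM of Id2 and 318 CPM of Epcam. Since clusters were built from these genes, no test was made.

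In dataset 1 the members were split between clusters. Cluster 1 there was led by Igkc, Ly6d, Cd79a, Dab2, Ifitm1, Ly6a, H2-DMb2, Ccnd2, Fcmr and Ms4a1, of which Cd79a, Fcmr and Ms4a1 are on the B cell list. Cluster 8 of dataset 2, also led by Igkc, had 0 of 27 cells with Epcam. Cluster 1 of dataset 1 held 12 of the 26 members, 13.2% (7.0 to 21.9) of its 91 cells. The B cell list summed to 59.43 CPM in the 26 members and 63.8 CPM in the other DN blood cells of dataset 1, and its part in this cluster was not tested. Those 12 members had 626 CPM of Id2 (447 to 853), against 165 CPM in the cells of that cluster without Epcam. The 14 members elsewhere had 56.6 CPM of Id2 (15.4 to 145) and 0 UMIs of Cd24a, Kit and F11r, and the cells without Epcam elsewhere had 38.2 CPM of Id2. Ccr2 was at 157 CPM in the 12 members and 792 CPM in the 14. The dataset 1 values in the tests are thus a mix of 12 cells whose Id2 level is near that of dataset 2 members and 14 whose level is near that of cells without Epcam. This split was seen after the test, and no test was made on it.

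Across the 9 clusters of dataset 2, the genes whose level was most like that of Epcam were Rinl (Pearson r = 0.952), Gdi2 (0.949), Lpp (0.946), Fem1c and Wdfy4 (0.938 each), Slc46a3 (0.924), Slc36a3os (0.918) and Coq10b (0.91). The correlations are over log2(CPM + 1) in genes with at least 20 CPM over DN blood cells. The points share 1 dataset and differ in depth. Rinl and Wdfy4 were also among the genes higher in members.

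Sorted cDC2s of Peyer's patches, measured in dataset 1 alone, gave a scale for these levels. Immature cDC2s had 386 CPM of Epcam, 602 CPM of Id2, 111 CPM of Cd24a, 84.8 CPM of F11r, 76.6 CPM of Pmepa1, 117 CPM of Kit and 522 CPM of H2-DMb2. Members of dataset 2 had 408, 654, 70.5, 64.8, 27.6, 60.9 and 221 CPM of the same genes. The Epcam level of members was set in part by the rule, which left out every cell with 0 Epcam UMIs. The cDC2s were not chosen by Epcam, and 70.8% of the immature ones had a UMI. Epcam levels of the 2 groups are thus no measure of likeness. Summed members of dataset 1, from the same library as the cDC2s, had 327 CPM of Id2, 44.6 CPM of Cd24a and 22.3 CPM of F11r, below immature cDC2s. They had 52.0 CPM of Pmepa1 (20.9 to 107), an interval that holds the cDC2 level, and 223 CPM of Epcam, which the rule used. These sums mix 2 sets of cells. The 12 members in cluster 1 had 626 CPM of Id2 (447 to 853), 93.9 CPM of Cd24a, 47.0 CPM of F11r and 78.3 CPM of Pmepa1. The 14 members elsewhere had 56.6, 0, 0 and 28.3 CPM. In Cd209a the groups were far apart, at 15.1 CPM in immature cDC2s and 520 and 453 CPM in members of datasets 2 and 1. Ltb was at 764 CPM against 130 and 111 CPM. Members and cDC2s come from different tissues, and members of dataset 2 also from another dataset, so these levels are given side by side without a test.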

How the data were processed

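The authors deposited raw counts of UMIs, by gene or hashtag and by barcode, without normalization, written by Cell Ranger 6.0.1 per the file headers, whereas the submitters' processing notes name Cell Ranger 2.0.0. The matrices hold 32285 genes. In each dataset HTODemux (Seurat 5.3.0, quantile 0.99) assigned hashtags, and barcodes with several hashtags were removed as doublets. Cells needed at least 1000 UMIs and 500 genes and at most 10% mitochondrial UMIs.

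Counts were summed over cells with Epcam, DN blood cells without it, Ly6C+ monocytes and CD43+ monocytes in each dataset. These 8 sums were fitted in edgeR 4.0.16 (TMM, filterByExpr, robust glmQLFit) with dataset as a block, 3 residual degrees of freedom, and two-sided p-values. Every p rests on 2 pools of mice. To get the SE, the size of a change was divided by the root of its F statistic. The replicate numbers are the datasets, which are separate pools and libraries by the labels, so the block is part of the design. The scripts were tested on simulated data. DN blood cells were clustered per dataset in scanpy 1.11.5 with igraph 0.11.9 (2000 variable genes, 30 components, 20 neighbours, resolution 0.8).

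Genes were named by rule: per direction, up to 12 with the largest fold among called genes whose sign was shared by both datasets and by thinned cells, with at least 50 CPM in the higher group of both, plus up to 4 called members per list. The members and the 28 lists were chosen with earlier results of these data known. Sequences came from RefSeq, positions from GRCm38 annotation.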

Additional observations from a re-analysis of the deposited data

Results flagged for a closer look

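Barcodes with several hashtags, which were left out of every comparison, also held Epcam. In dataset 1, 19.1% of them (396 of 2078; exact 95% interval 17.4 to 20.8; median depth 11407 UMIs) had at least 1 UMI. In dataset 2 the share was 5.42% (168 of 3099; 4.65 to 6.28; median 8759 UMIs), against 0.115% in Ly6C+ monocytes and 5.49% in DN blood cells with 1 hashtag. These barcodes can hold cells of several populations, so their values are given with no population.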

How the results depend on the processing

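The 27 named genes gave 432 values under 16 alternatives, of which 257 kept their side of the threshold, 175 fell short of it and 0 changed sign. Genes named by size had to share a sign in both datasets and in thinned cells. The lack of sign changes was thus partly fixed in advance. The counts of genes, 34 higher and 21 lower, moved more. Leaving out 1 sum at a time, they ranged from 0 to 88 higher and from 0 to 245 lower, with 0 to 19 lists holding a called gene instead of 9. Without the dataset 1 members there were 7 and 12 calls, of which 9 were among the 55. Without those of dataset 2 there were 0 (575 genes at an unadjusted p under 0.05). Without the dataset 1 cells lacking Epcam there were 57 and 59, and without those of dataset 2, 88 and 245. A lone sum is assumed to vary like the others. With no replicate block 0 genes and 0 lists were called (697 at an unadjusted p under 0.05; 938 with it, and 32 higher and 23 lower calls by DESeq2).

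The counts of higher genes, lower genes and lists were 62, 93 and 15 with at least 2 Epcam UMIs, 138, 186 and 18 with only the 4 DN sums, 20, 12 and 5 with LysoDC sums added, 103, 214 and 16 with no filter on low counts, and 17, 12 and 5 with a ratio-based hashtag call. Matching the other cells in depth left 6 higher genes and 4 lists, with 18 lower. Lower genes numbered 49 with thinned cells, 79 with membership from thinned counts (16 lists), and 11 without TMM, where 46 were higher. The cause of these shifts was not tested. The share with Epcam in dataset 2 was 3.78% thinned and 1.93% for at least 2 UMIs, and the latter was 0.238% in dataset 1. The cluster with most members held 98.5% and 63.4% of them at other resolutions. The 134605 UMIs of dataset 1 members limit all tests.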
